A study of Homo sapiens with 4 samples.

Results

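The nuclear factor I (NFI) family comprises the transcription factor genes NFIA, NFIB, NFIC and NFIX, and its members here are all the probe sets that the array's annotation pairs with exactly 1 of these symbols. There were 24 such probe sets of 54613 in all, with 7 for NFIA, 9 for NFIB, 4 for NFIC and 4 for NFIX. No probe set paired with several symbols included a member (0 probe sets). A probe set is a group of short probes on an Affymetrix array that together give 1 intensity for a transcript.

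Transcripts were measured in NCI-H209 and Lu139, established lines of human small cell lung carcinoma, each electroporated with siRNA against TTF-1 (siTTF-1) or with a non-targeting control siRNA (siNTC). TTF-1 is the homeodomain factor of lung and thyroid encoded by NKX2-1, and the series asks which genes it regulates in this cancer. Each of the 4 combinations was measured on 1 array, and the groups were siTTF-1 NCI-H209, siNTC NCI-H209, siTTF-1 Lu139 and siNTC Lu139, so that the siRNA effect is replicated across 2 lines and nowhere else. All groups were electroporated, and the time between electroporation and harvest is not given in the sources used here.

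NFI proteins bind DNA as dimers at a palindrome of TTGGC and GCCAA through a conserved N-terminal domain, and their more variable C-terminal part can activate or repress transcription. In the mouse, Nfib is required for lung maturation, and Nfib in small cell lung cancer models is a driver of progression and metastasis. NFIB is amplified in some human small cell lung cancers. NFI and TTF-1 are both known to act on the promoter of the surfactant protein C gene in the lung.

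The arrays had median intensities of 57.6 (siTTF-1) and 56.4 (siNTC) for NCI-H209, with 49.5 and 48.3 for Lu139. The expression limit used below was an intensity of 36.9, or 5.80 on the log2(value + 18.7) scale, on which all log2 fold changes are given (siTTF-1 over siNTC). This scale understates the change of dim probe sets. Of the markers of small cell lung cancer that were analysed, all 6 neuroendocrine and all 3 epithelial genes were above the limit in both lines. The secretory granule gene CHGA had an intensity of 3814 on the siTTF-1 and 3403 on the siNTC array of NCI-H209, with 2415 and 1952 for Lu139. The other 5 neuroendocrine genes were lower after siTTF-1 in NCI-H209, with log2 fold changes from -0.51 (GRP) to -0.11 (SYP), and had values from -0.16 (NCAM1) to 0.40 (GRP) in Lu139. The summed intensity of the neuroendocrine list was 18907 on the siTTF-1 and 23351 on the siNTC array of NCI-H209, and 13989 and 12888 for Lu139. Of 3 markers each for leukocytes, fibroblasts and endothelial cells, 2 of each list were above the limit in each line. Of all 19775 genes, 14640 were above it in NCI-H209 and 14002 in Lu139, by the brightest probe set of each gene. The limit is a percentile of intensity and does not itself show that a gene is expressed. PTPRC (9.78 to 11.3), COL1A2 (24.9 to 30.7) and CDH5 (9.63 to 11.0) were below it on all 4 arrays. The others were above it by the mean of each line's arrays. For leukocytes these were CD3E (63.7 to 88.6) and CD14 (41.9 to 69.9), and for fibroblasts COL1A1 (259 to 362) and DCN (33.4 to 75.0). For endothelial cells they were PECAM1 (94.4 to 146) and VWF (61.4 to 75.5). The summed intensity of the leukocyte list was 169.1 and 146 in siTTF-1 and siNTC NCI-H209 and 135 and 116 in Lu139. The fibroblast list summed to 398 and 358 (NCI-H209) and to 449 and 393 (Lu139), and the endothelial list to 228 and 209.5 (NCI-H209) and to 215 and 169 (Lu139). The epithelial list summed to 27960.6 and 26380.5 (NCI-H209) and to 12682.6 and 12165.2 (Lu139). The epithelial, leukocyte, fibroblast and endothelial sums were thus all higher on both siTTF-1 arrays, as were the array medians. The neuroendocrine sum was lower on the siTTF-1 array of NCI-H209 and higher on that of Lu139. The part of these differences in the results below was not tested.

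NKX2-1, the targeted gene, was lower after siTTF-1 on both of its probe sets. On 211024_s_at its intensity was 243 in siTTF-1 and 596 in siNTC NCI-H209, and 461 and 779.9 in Lu139, which is 40.7% and 59.1% of siNTC. On 210673_x_at it was 127 in siTTF-1 and 196 in siNTC NCI-H209, and 221 and 400.4 in Lu139, which is 64.6% and 55.3%. On the first of these the limma adjusted p over 32768 probe sets was 0.115, so the targeted gene itself did not pass an adjusted p under 0.05.

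NFIB, the family member tied to small cell lung cancer, had the largest differences between siTTF-1 and siNTC in the family. On 6 of its 9 probe sets it was above the limit in both lines, and all 6 were lower after siTTF-1 in both. The 213032_at intensity was 192 in siTTF-1 and 496 in siNTC NCI-H209, and 275 in siTTF-1 and 472 in siNTC Lu139. That is 38.6% of siNTC in NCI-H209 and 58.2% in Lu139. On the log2 scale this was -1.29 in NCI-H209 and -0.74 in Lu139, with a mean of -1.02 (SD 0.39, n = 2 lines; limma 95% interval -1.37 to -0.66, adjusted p = 0.117).

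The brightest NFIB probe set, 209289_at, read 374 in siTTF-1 and 799 in siNTC NCI-H209, and 476 and 701 in Lu139. On 209290_s_at the intensity was 246 in siTTF-1 and 545 in siNTC NCI-H209, and 497 and 713 in Lu139. On 213029_at it was 251 in siTTF-1 and 513 in siNTC NCI-H209, and 325 and 465 in Lu139. These 3 probe sets agreed closely: they stood at 46.7%, 45.1% and 49.0% of siNTC in NCI-H209 and at 68.0%, 69.8% and 69.9% in Lu139. Their mean log2 fold changes were -0.80, -0.80 and -0.74 (SD 0.37, 0.42 and 0.34, n = 2 lines), with limma adjusted p-values of 0.127, 0.13 and 0.13.

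The 2 dimmer NFIB probe sets above the limit had smaller differences. On 213033_s_at the intensity was 118 in siTTF-1 and 203 in siNTC NCI-H209, and 142 and 160.2 in Lu139, which is 57.9% and 88.9% of siNTC. On 211467_s_at it was 73.9 in siTTF-1 and 103 in siNTC NCI-H209, and 98.4 and 127 in Lu139, which is 71.6% and 77.4%. The annotation gives 213033_s_at the same source transcript as 213032_at, yet its log2 fold changes were -0.70 and -0.15, against -1.29 and -0.74. Probe sets of 1 source are not independent readings. Likewise 211467_s_at shares its source with 211466_at, which was near background at 9.95 on both arrays of NCI-H209 and at 14.5 and 15.6 in siTTF-1 and siNTC Lu139.

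The other NFIB probe sets, 233394_at and 233304_at, were also below the limit on every array, with 27.8 as the highest value. On these, siTTF-1 over siNTC ran from -0.15 to 0.10 on the log2 scale. The lower NFIB values after siTTF-1 thus come from the 6 brighter probe sets, on which the log2 fold change ran from -0.40 to -1.29 in NCI-H209 and from -0.15 to -0.74 in Lu139. As the mean of all 9 probe sets, the dim ones included, the NFIB log2 fold change in NCI-H209 was -0.60. In cells measured in bulk, fewer cells that express a gene and less RNA per cell cannot be told apart.

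**Figure D1:**
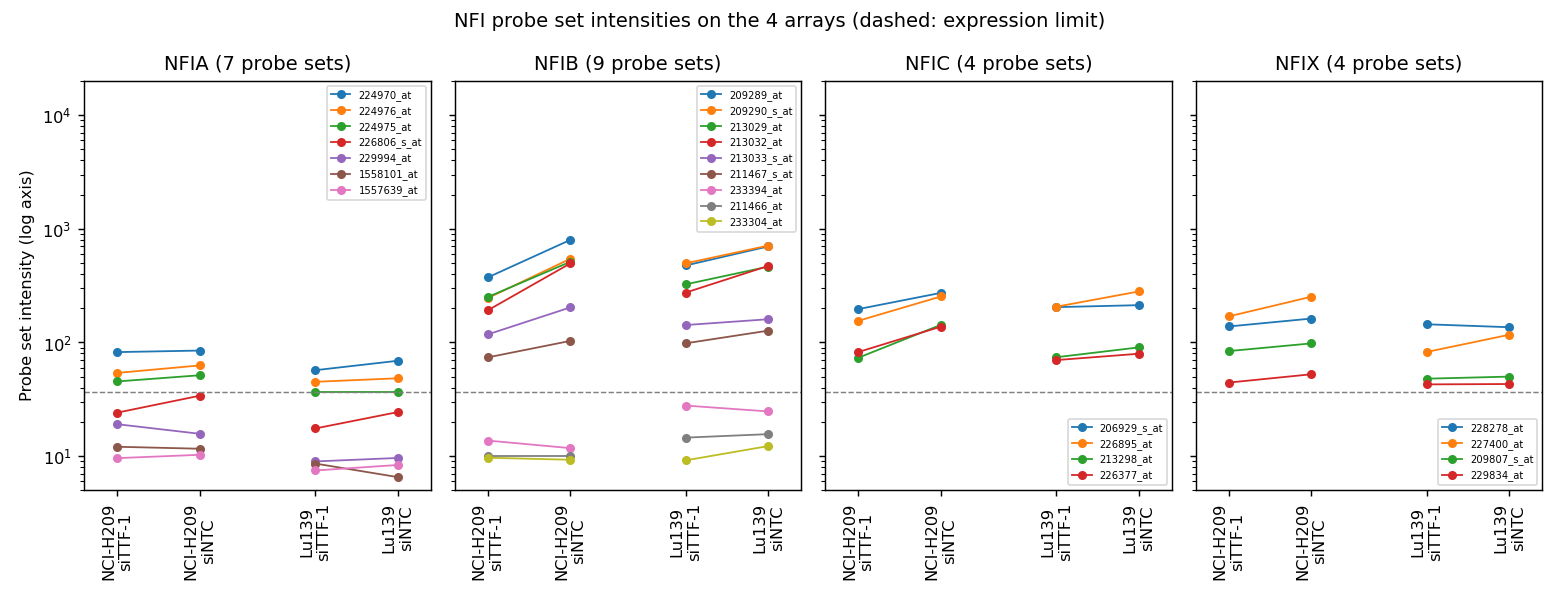
Intensity (log axis) of every NFI probe set on the 4 arrays, 1 panel per gene and 1 colour per probe set, with siTTF-1 left of siNTC within each line and the expression limit of 36.9 dashed. Lines that climb from left to right are probe sets lower after siTTF-1, and the 6 NFIB probe sets above the limit do so in both lines.

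NFIB transcripts start at many places, and RefSeq's table for GRCh38.p14 holds 10 windows of 300 bases for NFIB (250 before a start and 50 after it), against 3 for NFIA, 1 for NFIC and 5 for NFIX. The windows were searched for CTCAAG, the core of the TTF-1 recognition sequence, on both strands (CTTGAG on the other strand). It was found in 4 of the 10 NFIB windows and in 0 windows of the other members, against 12.4% of 35116 windows of all genes. The NFI palindrome, TTGGC and then GCCAA after any 5 bases, was in 0 member windows and in 0.0285% of all. The shorter NFI sequence TTGGCA (or TGCCAA) was in 3 of the 10 NFIB windows and 0 windows of the other members. Of the windows of all genes, 12.5% held it. A share in NFIB above that of all windows was thus not limited to CTCAAG. Some windows of 1 gene overlap, and a match in letters is not a binding site. The following are the 250 bases before each of the 4 NFIB starts with a CTCAAG match, and before the NFIC start. The NFIC start has none, and these are shown because NFIB and NFIC had the largest differences. Capitals mark CTCAAG or its complement.
NFIB, chr9:14180805-14181054, minus strand: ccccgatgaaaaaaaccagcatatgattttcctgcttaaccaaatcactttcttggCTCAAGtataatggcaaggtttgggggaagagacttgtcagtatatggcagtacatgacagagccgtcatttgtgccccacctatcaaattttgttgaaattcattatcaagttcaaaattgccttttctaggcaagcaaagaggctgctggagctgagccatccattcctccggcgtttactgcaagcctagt
NFIB, chr9:14300265-14300514, minus strand: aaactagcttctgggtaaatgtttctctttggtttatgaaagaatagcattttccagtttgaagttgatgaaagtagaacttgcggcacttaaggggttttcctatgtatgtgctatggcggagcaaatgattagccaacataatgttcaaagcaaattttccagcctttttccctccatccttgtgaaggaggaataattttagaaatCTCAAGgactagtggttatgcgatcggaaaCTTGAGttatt
NFIB, chr9:14306846-14307095, minus strand: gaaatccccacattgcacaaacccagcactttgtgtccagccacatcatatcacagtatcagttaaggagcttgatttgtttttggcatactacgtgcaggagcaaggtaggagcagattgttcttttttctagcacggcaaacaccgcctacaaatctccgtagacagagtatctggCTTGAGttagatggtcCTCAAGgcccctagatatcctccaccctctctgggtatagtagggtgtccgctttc
NFIB, chr9:14314955-14315204, minus strand: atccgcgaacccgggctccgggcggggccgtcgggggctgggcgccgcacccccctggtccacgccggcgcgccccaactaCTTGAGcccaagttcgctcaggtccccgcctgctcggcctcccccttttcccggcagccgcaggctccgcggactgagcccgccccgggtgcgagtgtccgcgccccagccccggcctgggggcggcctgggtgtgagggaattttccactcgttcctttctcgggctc
NFIC, chr19:3359380-3359629, plus strand: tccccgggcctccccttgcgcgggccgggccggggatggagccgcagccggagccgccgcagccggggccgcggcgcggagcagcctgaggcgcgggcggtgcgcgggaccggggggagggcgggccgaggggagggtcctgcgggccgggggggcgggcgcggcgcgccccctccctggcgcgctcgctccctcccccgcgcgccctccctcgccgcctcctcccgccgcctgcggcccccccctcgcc

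The match begins 194 bases before the first of these NFIB starts. In the second stretch the matches begin 41 and 11 bases before the start, in the next one 72 and 56 bases, and in the last NFIB stretch 169 bases before it. The base composition differed: G and C made up between 37.6% and 74.8% of these NFIB stretches and 87.2% of the NFIC stretch. Which of these starts the lines use cannot be read from these arrays.

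NFIC, known for its part in tooth root formation in the mouse, was the other member with probe sets over 1.5-fold lower, and all 4 of its probe sets were above the limit and lower after siTTF-1 in both lines. On 213298_at the intensity was 73.4 in siTTF-1 and 143 in siNTC NCI-H209, and 74.2 and 90.5 in Lu139. This is 51.3% of siNTC in NCI-H209 and 81.9% in Lu139. The value in siNTC NCI-H209 was the high one, and the 2 siTTF-1 arrays were level.

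On 226895_at NFIC read 155 in siTTF-1 and 254 in siNTC NCI-H209, and 206 and 281 for Lu139 (log2 fold changes -0.65 and -0.41). On 226377_at it read 82.4 in siTTF-1 and 138 in siNTC NCI-H209, and 70.0 and 79.6 in Lu139 (-0.63 and -0.15). On 206929_s_at it read 197 in siTTF-1 and 273 in siNTC NCI-H209, and 205 and 213 in Lu139 (-0.44 and -0.05). The probe sets agreed on the direction in both lines and on the larger difference in NCI-H209, while in Lu139 3 of the 4 had a log2 fold change between -0.23 and -0.05. Limma gave mean log2 fold changes from -0.53 (226895_at, SD 0.17, n = 2 lines, adjusted p = 0.152) to -0.25 (206929_s_at, SD 0.27, adjusted p = 0.405).

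NFIX, which in the mouse directs the switch from embryonic to fetal muscle, was read by 4 probe sets above the limit that disagreed in size. On 227400_at the intensity was 169.7 in siTTF-1 and 253 in siNTC NCI-H209, and 82.6 and 117 in Lu139. This is 67.1% and 70.6% of siNTC, nearly the same in both lines, or -0.53 and -0.42 on the log2 scale (mean -0.47, SD 0.07, n = 2 lines; limma adjusted p = 0.156). On 228278_at it read 138 in siTTF-1 and 162 in siNTC NCI-H209, and 145 and 136 in Lu139.

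The NFIX probe set 228278_at was thus lower in NCI-H209 and higher in Lu139 after siTTF-1, the 1 probe set of the family above the limit in both lines with opposite directions. On 209807_s_at NFIX read 84.0 in siTTF-1 and 98.2 in siNTC NCI-H209, and 48.0 and 50.1 in Lu139. On 229834_at it read 44.4 in siTTF-1 and 52.5 in siNTC NCI-H209, with 42.8 and 43.1 for Lu139. Apart from 227400_at, the NFIX log2 fold changes lay between -0.21 and -0.17 in NCI-H209 and between -0.04 and 0.08 in Lu139.

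NFIA, which drives the onset of glial development in the mouse, had the lowest share of probe sets above the limit, 3 of 7 for NCI-H209 and 2 of 7 for Lu139. On 224970_at the intensity was 82.3 in siTTF-1 and 84.9 in siNTC NCI-H209, and 57.0 and 69.0 in Lu139. On 224976_at it was 54.0 in siTTF-1 and 62.8 in siNTC NCI-H209, and 45.1 and 48.4 in Lu139. On 224975_at it was 45.4 in siTTF-1 and 51.5 in siNTC NCI-H209 and 36.4 on both arrays of Lu139, just under the limit. These log2 fold changes lay between -0.21 and 0.00, and limma gave mean changes of -0.12, -0.12 and -0.07 with adjusted p-values of 0.57, 0.555 and 0.753.

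The remaining 4 NFIA probe sets were below the limit in both lines. Among them 226806_s_at had 24.1 in siTTF-1 and 34.0 in siNTC NCI-H209 (log2 fold change -0.30), with 17.5 and 24.4 for Lu139 (-0.25). The other 3 read between 6.53 and 19.1, and their log2 fold changes ran from -0.05 to 0.13. NFIA-AS2, a separate gene antisense to NFIA, was read by 3 probe sets, all below the limit with 21.0 as the highest intensity.

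**Figure D2:**
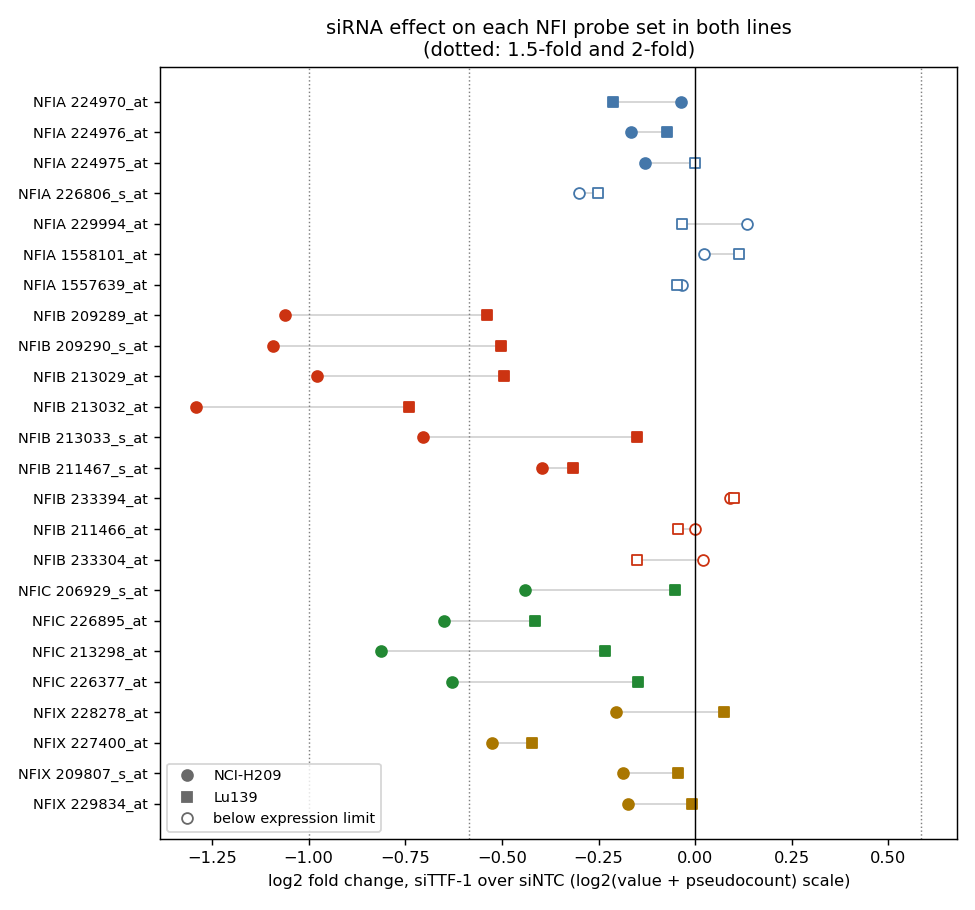
Log2 fold change of siTTF-1 over siNTC for each of the 24 NFI probe sets, in NCI-H209 (circles) and Lu139 (squares), with open symbols for probe sets below the expression limit. The 6 bright NFIB and the 4 NFIC probe sets lie left of 0 in both lines, and further left in NCI-H209.

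Over the family, 17 of 17 probe sets above the limit were lower after siTTF-1 in NCI-H209, where 46.1% of the 33231 probe sets above the limit were lower. In Lu139 15 of 16 were lower, where 45% of 31347 were. Counted over all 24 members, dim ones included, 19 were lower, 4 higher and 1 equal in NCI-H209, and 20 were lower, 3 higher and 1 equal in Lu139. Among members above the limit the median log2 fold change was -0.53 (NCI-H209) and -0.22 (Lu139), against medians of 0.01 and 0.02 over all probe sets above the limit. Probe sets of 1 gene share their transcript, so these counts rest on 4 genes.

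At 1.5-fold, 8 of the 17 were lower in NCI-H209 (5 of NFIB, 3 of NFIC), where 3.51% of all probe sets were, and 1 of 16 was lower in Lu139 (NFIB 213032_at), where 1.61% were. At 2-fold the counts were 3 in NCI-H209, all of NFIB, against 0.653% of all, and 0 in Lu139, against 0.166%. No member was 1.5-fold higher in either line (0 of 17 and 0 of 16), where 1.12% and 0.16% were. In both lines together 15 of 16 members were lower, against 28.3% of 29032 probe sets, and 1 was 1.5-fold lower in both, against 0.389%. The remaining member had opposite directions, as 32.6% of all did, and 0 were higher in both, against 35.5%.

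**Figure D3:**
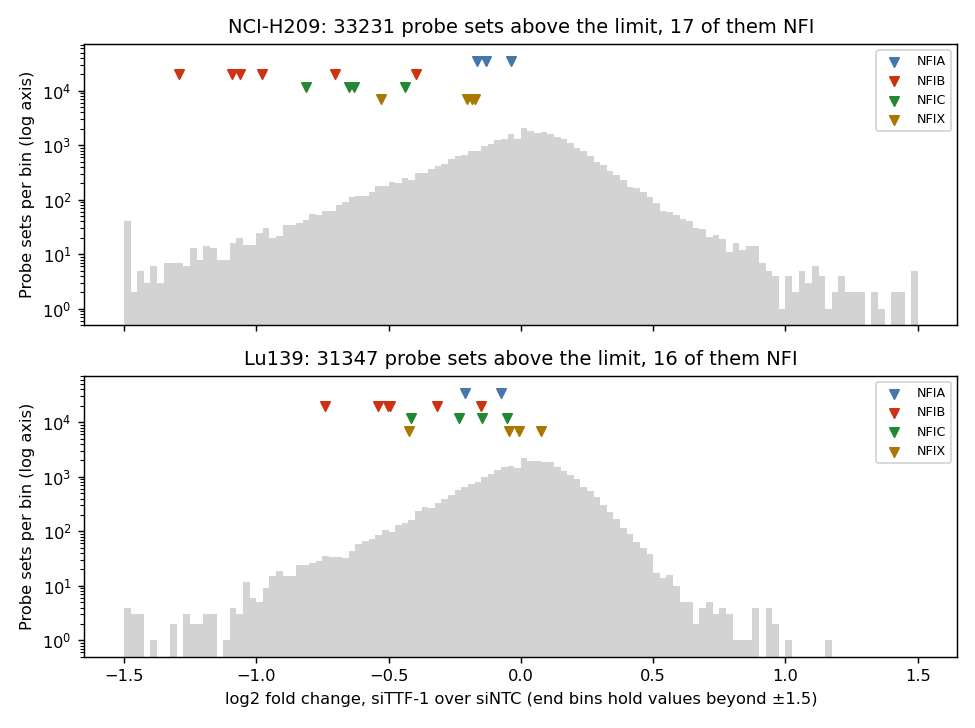
Histograms (log axis) of the log2 fold change of siTTF-1 over siNTC for all probe sets above the limit in NCI-H209 (top) and Lu139 (bottom), with triangles for the NFI probe sets in 1 row per gene. All 17 triangles lie below 0 in NCI-H209 and 15 of 16 do in Lu139, with NFIB furthest out.

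The log2 fold change was more negative in NCI-H209 than in Lu139 on all 6 NFIB, all 4 NFIC and all 4 NFIX probe sets above the limit in both lines, and on 1 of 2 of NFIA. Of these 16 probe sets, 14 were lower in both lines and more so in NCI-H209, against 19.2% of all probe sets. That share is low in part because only 28.3% of all were lower in both lines. Of the 15 members lower in both, 14 were more so in NCI-H209, and of all such probe sets 5564 of 8221 were. Over all probe sets above the limit, the SD of the log2 fold changes was also larger in NCI-H209, at 0.275, than in Lu139, at 0.208. Whether the effect on a member differs between the lines could not be tested with a single array for each combination.

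Tested across the lines with limma, 0 of the 17 family probe sets passed an adjusted p under 0.05, and 0% of all 32768 tested probe sets did. The smallest adjusted p of the family was 0.117 (NFIB 213032_at), and the smallest of the whole table was 0.104. At an unadjusted p under 0.05, 10 members were lower (6 of NFIB, 3 of NFIC and NFIX 227400_at), against 9.29% of all probe sets, and 0 were higher, against 5.88%. These p-values measure the spread between the 2 lines with 1 residual degree of freedom and borrow 5.96 prior degrees of freedom from other probe sets.

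NFI levels in Lu139 were set against those in NCI-H209 by the line term of the same model. Here the siTTF-1 and siNTC arrays of a line served as its only replicates. The limma intervals and p-values of this term thus measure how the line difference varies between the siRNAs. They do not measure the spread between cultures of a line. How the lines were scaled to each other is not known, and 2206 probe sets had exactly equal values on both arrays of Lu139 and 2414 on both of NCI-H209. Over all tested probe sets the median log2 difference of Lu139 minus NCI-H209 was -0.25, and 48.8% of probe sets were lower and 19.2% higher in Lu139 at an adjusted p under 0.05. A member's difference is therefore read against that shift and again with quantile normalization over the 4 arrays, where the median was 0.05.

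NFIX was lower in Lu139 on 2 probe sets. On 227400_at the line difference was -0.95 (limma 95% interval -1.19 to -0.70, adjusted p = 1.68e-04), and it was -0.60 after quantile normalization (adjusted p = 0.00114). On 209807_s_at it was -0.69 (-0.92 to -0.46, adjusted p = 5.63e-04), and -0.49 after quantile normalization (adjusted p = 0.00248). On 227400_at Lu139 had 82.6 against 169.7 in NCI-H209 between the siTTF-1 arrays, and 117 against 253 between the siNTC arrays. The other NFIX probe sets, 228278_at (-0.08) and 229834_at (-0.12), did not pass (limma adjusted p = 0.539 and 0.286) and changed sign with quantile normalization (0.29 and 0.03).

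NFIB was higher in Lu139 on 2 probe sets under each scaling tried. On 209290_s_at the line difference was 0.67 (limma 95% interval 0.31 to 1.03, adjusted p = 0.00655), or 1.12 after quantile normalization (adjusted p = 2.3e-04). On 211467_s_at it was 0.30 (0.06 to 0.53, adjusted p = 0.0311), or 0.60 (adjusted p = 0.00103). The other 4 NFIB probe sets had line differences from -0.04 to 0.21 and did not pass in limma. After quantile normalization 209289_at (0.53), 213029_at (0.56) and 213032_at (0.65) passed as well, with limma adjusted p-values of 0.00878, 0.00661 and 0.00376.

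The sign of the NFIB line difference differed between the siRNAs on 4 of its 6 probe sets, which was not tested. On 209289_at Lu139 minus NCI-H209 was 0.34 on the log2 scale between the siTTF-1 arrays and -0.18 between the siNTC arrays, and on 213032_at it was 0.48 and -0.07. The order of the 4 arrays on both probe sets was therefore siTTF-1 NCI-H209, siTTF-1 Lu139, siNTC Lu139 and siNTC NCI-H209 from low to high. On 209290_s_at both Lu139 siNTC (713) and NCI-H209 siNTC (545) were above the siTTF-1 arrays of both lines, with Lu139 siNTC the highest. With 1 array per group no spread is known for neighbouring values in these orders.

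For NFIC, 226377_at was lower in Lu139 (line difference -0.43, limma 95% interval -0.74 to -0.11, adjusted p = 0.0236) but not after quantile normalization (-0.16, adjusted p = 0.266). By contrast 226895_at had 0.26 (limma adjusted p = 0.0857), or 0.68 with quantile normalization (adjusted p = 9.17e-04), so the NFIC probe sets did not settle a direction. The 3 tested NFIA probe sets had line differences of -0.33, -0.23 and -0.28, near the median shift of all probe sets, and 2 of them passed in limma (224970_at, adjusted p = 0.022, and 224975_at, 0.0266) but none after quantile normalization (adjusted p from 0.214 to 0.545). In all, 5 of 17 members were called lower and 2 higher in Lu139, against 2 lower and 6 higher after quantile normalization over the 4 arrays, where 31.2% of all probe sets were lower and 35.7% higher. With each array centred on its median, 2 members were lower and 3 higher, where 39.2% and 27.2% of all were. With both siRNAs alike, 7 members were lower in Lu139, against 61.2% of all probe sets, and 3 were higher, against 28.6%.

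**Figure D4:**
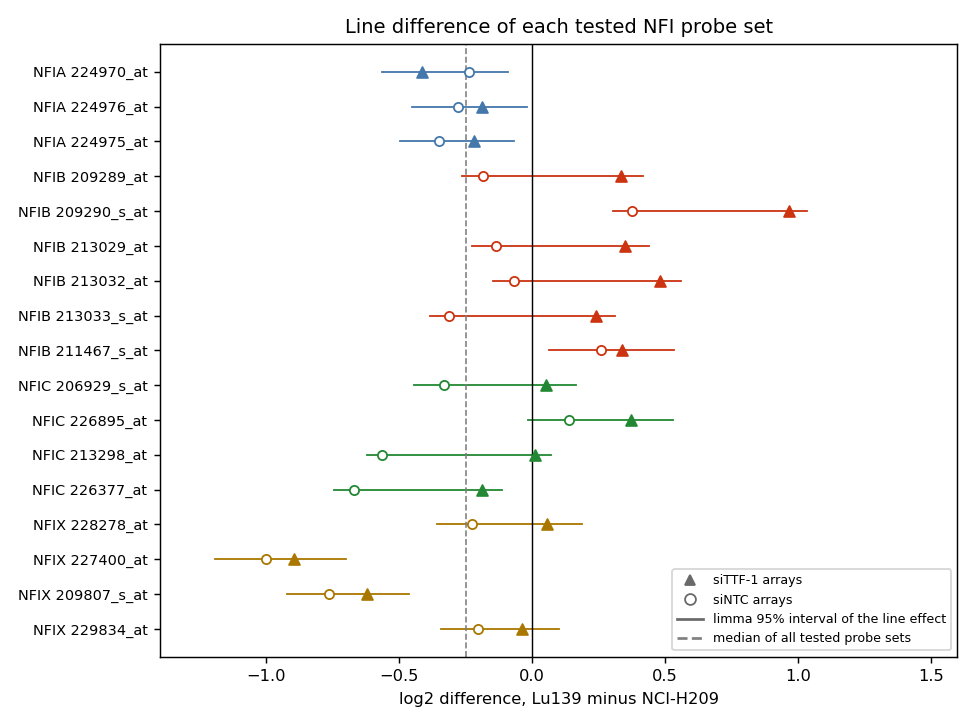
Log2 difference of Lu139 minus NCI-H209 for the 17 tested NFI probe sets, between the siTTF-1 arrays (triangles) and between the siNTC arrays (open circles), with the limma 95% interval of the line effect and the median of all tested probe sets at -0.25 (dashed). NFIX 227400_at and 209807_s_at lie below that median with both siRNAs, and NFIB 209290_s_at and 211467_s_at lie above 0 with both.

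The genes whose pattern over the 4 arrays was most like that of each member were found by the Euclidean distance of log2 values centred on each gene's mean, among 14552 other genes above the limit, with the brightest probe set standing for a gene. Closest to NFIB (209289_at) were PTGES3, which encodes the HSP90 co-chaperone p23, at a distance of 0.0996, AASDHPPT (0.137), URI1 (0.143), the ribosome biogenesis gene KRR1 (0.148) and CCDC91 (0.165), where the median distance was 1.06. PTGES3 had a log2 fold change of -0.97 for NCI-H209 and -0.54 for Lu139, against -1.06 and -0.54 for NFIB. Closest to NFIC (206929_s_at) were FAM210A, OGDHL, RTN3, RPLP1 and ZNF84, at distances from 0.016 to 0.047, against a median of 0.608. NFIX (228278_at) had USP13, ZNF786, CDRT15, CYP4A11 and TRAPPC6B nearest (0.013 to 0.035), and NFIA (224970_at) had LOC100288175, CRIPT, ATAD2B, ZNF383 and LINC00663 (0.012 to 0.041). NFIB, whose values varied most over the 4 arrays, had the largest of these distances.

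Among 12 factors known as partners or upstream regulators of NFI genes or of small cell lung cancer identity, 10 were analysed and 7 were above the limit in both lines. Both lines had 2 of these lower, the targeted gene NKX2-1 and EZH2, and 2 of them higher. Of genes above the limit in both lines, 27.5% were lower and 37.7% higher. The list had a median log2 fold change of -0.33 for NCI-H209 and 0.19 for Lu139, against 0.01 and 0.03 over 13313 genes above the limit in both. In limma 0 of the 10 tested passed an adjusted p under 0.05. An unadjusted p under 0.05 was found for 2, NKX2-1 and SOX9, and for 14.9% of 14553 genes. The siRNA itself targets NKX2-1, so its place in these counts is no result about a partner factor. Beside NKX2-1, the largest mean log2 fold changes of the list among genes above the limit in both lines were those of SOX9, a progenitor factor of the lung tip, and FOXA1. SOX2, below the limit in Lu139 (29.6 on both arrays), had 846 in siTTF-1 and 1233 in siNTC NCI-H209. SOX9 had 227 in siTTF-1 and 176 in siNTC NCI-H209 and 182 and 157 for Lu139 (log2 fold changes 0.34 and 0.19, limma adjusted p = 0.321). FOXA1, a pioneer factor of lung epithelium, had 278 in siTTF-1 and 384 in siNTC NCI-H209, and 736 and 718 in Lu139 (-0.44 and 0.03, limma adjusted p = 0.51).

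Of 23 genes known as NFI targets in other tissues, 14 were above the limit in both lines, with 1 lower and 7 higher in both (27.5% and 37.7% of all genes) and a median log2 fold change of 0.03 for NCI-H209 and 0.17 for Lu139. In limma 0 of the 17 tested passed an adjusted p under 0.05, and 4 had an unadjusted p under 0.05, against 14.9% of all genes. The transcription factor gene KLF4, a target of NFIC in mouse odontoblasts, had 2670.1 in siTTF-1 and 1901 in siNTC NCI-H209 and 419 and 233 for Lu139 (log2 fold changes 0.49 and 0.80, limma adjusted p = 0.127). The aldolase gene ALDOC had 263 in siTTF-1 and 198 in siNTC NCI-H209, and 305 and 228 in Lu139 (0.38 and 0.39, limma adjusted p = 0.203). CDH2, the N-cadherin gene and an NFI target in mouse cerebellar granule neurons, had 499 in siTTF-1 and 674 in siNTC NCI-H209, and 1100.2 and 1280.4 in Lu139 (-0.42 and -0.22, limma adjusted p = 0.256). The glial genes FABP7 (11.2 to 20.6), S100B (15.6 to 23.1) and AQP4 (13.2 to 16.2) were below the limit on all 4 arrays. GFAP (61.0 to 64.0) and SLC1A3 (39.6 to 46.7), also glial genes, were above it on all 4.

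The chromosomal neighbours, the 4 protein-coding genes on each side of each member in the RefSeq order, served to see whether a whole region moved with its NFI gene. Of 32 neighbours 30 were analysed and 21 were above the limit in both lines, of which 6 were lower and 5 higher in both (27.5% and 37.7% of all genes), with a median log2 fold change of -0.02 for NCI-H209 and -0.04 for Lu139. In limma 0 of the 25 tested passed an adjusted p under 0.05, and 3 had an unadjusted p under 0.05 (MPDZ, CELF5 and LURAP1L), against 14.9% of all genes. Beside NFIB, MPDZ, a scaffold gene of tight junctions, had 256 in siTTF-1 and 357 in siNTC NCI-H209, and 253 and 286 in Lu139 (-0.45 and -0.17, limma adjusted p = 0.301). LURAP1L, also near NFIB and below the limit in Lu139, was higher, with 105 in siTTF-1 and 71.4 in siNTC NCI-H209, and 27.5 and 23.4 in Lu139 (0.45 and 0.14, limma adjusted p = 0.281). On the other side of NFIB, the palmitoyltransferase gene ZDHHC21 had 219 in siTTF-1 and 203 in siNTC NCI-H209, and 118 and 142 in Lu139, a direction that differed between the lines.

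Next to NFIC, the RNA-binding protein gene CELF5 had 63.0 in siTTF-1 and 96.8 in siNTC NCI-H209, and 176 and 236 for Lu139 (log2 fold changes -0.50 and -0.39, limma adjusted p = 0.167). HOOK1, a neighbour of NFIA that links cargo to microtubules, had 1050.2 in siTTF-1 and 1579.7 in siNTC NCI-H209, and 1307 and 1234 in Lu139 (-0.58 and 0.08). Of the 8 neighbours of NFIX, 7 were above the limit in both lines, with 1 lower and 2 higher in both. For NFIC 6 of 8 were above it, with 2 lower and 3 higher, and for NFIA 5 of 8, with 2 lower and 0 higher. For NFIB only 3 of 8 were above it in both lines, with 1 lower and 0 higher. The pooled counts therefore say little about the region of NFIB.

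**Figure D5:**
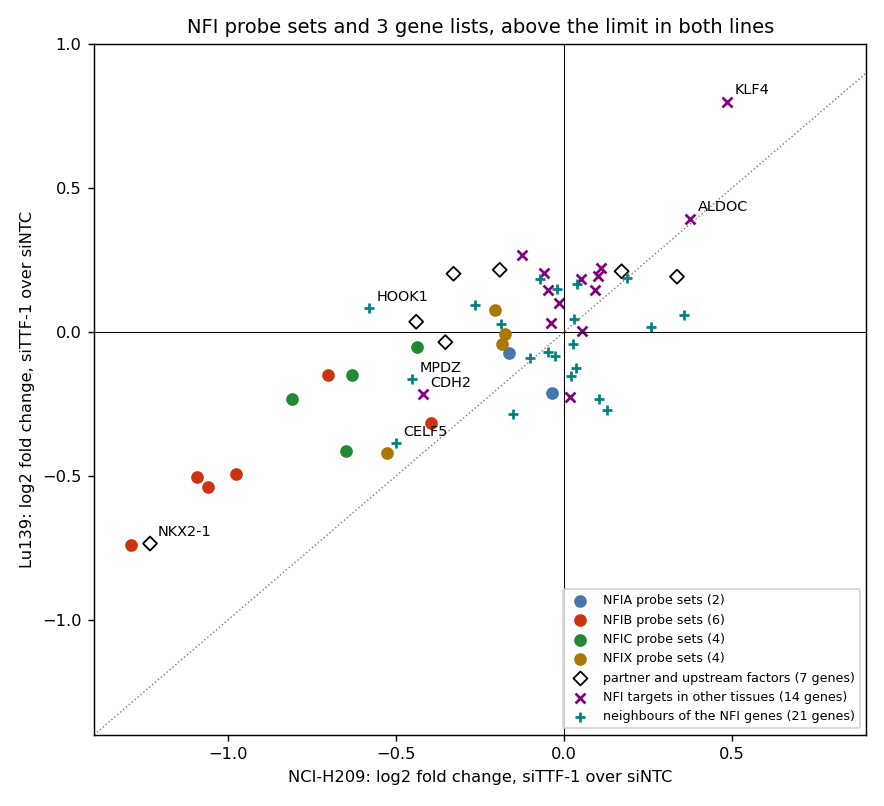
Log2 fold change of siTTF-1 over siNTC in NCI-H209 (x axis) against Lu139 (y axis) for the 16 NFI probe sets and the listed genes that were above the limit in both lines, with equal change dotted. NFIB and NFIC probe sets lie below 0 on both axes, as does NKX2-1, while the list of NFI targets has KLF4 and ALDOC in the upper right and CDH2 in the lower left.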

How the data were processed

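The authors deposited linear intensities of probe sets, from 3.03 to 26148, in 1 column for each array. Affymetrix Expression Console is named per the submitters' processing notes. What version and algorithm were used, and how arrays were normalized, is not given in the sources used here, so the scaling between lines is unknown.

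Of 54675 probe sets, 62 array controls were left out. The platform's annotation paired 41091 of the others with 1 symbol, 1801 with several and 11721 with none. For 41037 of those with 1 symbol the gene identifier was found in RefSeq (GRCh38.p14). Their symbol was taken from there, whether or not it differed from that of the annotation. Values were taken as log2(value + 18.7), where 18.7 is the 25th percentile of all values. The limit was set at the 40th percentile of log2 values averaged over the arrays.

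Differences within a line rest on 1 array a group and have no test. Limma (version 3.58.1, R version 4.3.3) was fitted to 32768 probe sets with terms for siRNA and line and a variance trend, with two-sided p-values and Benjamini-Hochberg adjustment over all. The line served as the block, since siTTF-1 and siNTC were each applied to the same cell line. No label gives separate cultures, so the p-values reflect only how these 4 arrays vary, and that variation may be technical. The fit was also run on simulated data. Their noise was drawn from the spread of these same arrays, so that run does not check the error model. Python 3.11.15 and matplotlib 3.10.9 were used.

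Members, lists, thresholds and the named-gene rule were chosen with earlier results of these data known. The rule took all member probe sets, NKX2-1, in each list the 3 genes of largest mean change among those above the limit in both lines, and the 5 genes nearest in pattern. Alternatives changed the pseudocount, the scaling, the limit, the choice of probe set, the variance trend and the line term. EZH2, ZDHHC21, LURAP1L, SOX2, FABP7, S100B, AQP4, GFAP, SLC1A3 and the cell type markers were named outside it, after their values were seen. The number of arrays limits the precision.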

Additional observations from a re-analysis of the deposited data

Results flagged for a closer look

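NFIX probe set 228278_at had opposite directions in the lines after siTTF-1: its log2 fold change was -0.21 for NCI-H209 and 0.076 for Lu139. The difference was not tested, as there is a single array for each combination. Over all probe sets above the limit in both lines, 32.6% had opposite directions.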

How the results depend on the processing

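The count of members 1.5-fold lower was 8 in NCI-H209 and ran from 6 to 8 under other pseudocounts, scalings and limits. It was 1 in Lu139 under each of these. Of all features, 2.17% to 4.58% were 1.5-fold lower in NCI-H209 under these settings, and 1.11% to 2.06% in Lu139. With 1 mean value for each gene, 2 of 3 genes above the limit were 1.5-fold lower in NCI-H209 and 0 in Lu139. Among all genes, 2.33% of 13722 were in NCI-H209 and 0.411% of 12882 in Lu139. Limma called 0 members for siTTF-1 under each alternative, the fit with no line term (no replicate block) included, in which 0 probe sets were called. The smallest limma adjusted p of a member was 0.0613, for NFIB 213032_at with quantile normalization over the 4 arrays. With 1 line left out, the effect on NFIX 228278_at ran from -0.21 (without Lu139) to 0.076 (without NCI-H209). The count of members called between the lines was 7, against 12 of 24 with no limit, 4 of 12 with the limit at the 60th percentile, 1 of 4 with the brightest probe set per gene and 1 of 3 with the gene mean, where fewer or more features were tested. Over all 32768 features, 15977 were lower and 6296 higher in Lu139. Quantile normalization over the 4 arrays gave 10224 and 11712, and centring each array on its median gave 12845 and 8911. With no limit these counts were 23528 and 9183 of 54613 features, and with the limit at the 60th percentile 11822 and 4209 of 21845. They were 7529 and 2728 of 14553 with the brightest probe set per gene, and 7232 and 2533 of 13524 with the gene mean. Most features were thus called in each of these settings. Line differences changed sign with quantile normalization over the 4 arrays for NFIC 206929_s_at (0.29), NFIB 213033_s_at (0.35), NFIX 228278_at (0.29) and NFIX 229834_at (0.030), and with centring on the median for the same probe sets (0.023, 0.13, 0.079 and 0.043), since these settings move the median of all probe sets to 0.05 and -0.08. The log2 ratio with no pseudocount, added after seeing the data, was -0.48 for NFIB 211467_s_at in NCI-H209 and -0.50 for NFIX 227400_at in Lu139, against -0.40 and -0.42.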
